A study of Drosophila melanogaster with 8 samples.

Results

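Animals keep surplus fat as triacylglycerol in lipid droplets, which in the fly lie mostly in the fat body, a tissue with the roles of liver and adipose tissue that also fills part of the head. Droplets are built by acyltransferases and the seipin protein, are covered by perilipins and other coat proteins, and are emptied by lipases under the control of adipokinetic hormone, a peptide released from the corpora cardiaca that acts on a receptor of fat body cells. Many insects build up fat reserves before or during winter dormancy. The 10 genes examined here were chosen by name as proteins of fat storage and mobilisation, with earlier results of these data known. Each was taken by the probe set with the highest mean among those annotated to that gene alone. They were 10 of the 11982 genes with such a probe set, and together held 12 of the 18769 probe sets tested.

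Expression was measured in the heads of females of Canton-S, a common wild-type laboratory strain, on arrays that measure each gene by sets of short oligonucleotide probes. All flies spent the first 12 days after emergence at 12.5 °C, and heads were taken at 4 h into the light phase. The long day group (4 samples) had 16 h of light and 8 h of dark, and the short day group (4 samples) had 10 h of light and 14 h of dark according to the labels. The study's methods state a still shorter light phase for short days and a wider collection window, so the exact photoperiod of the short day group is uncertain. Nothing in the labels says whether the numbered samples came from separate vials, and the p-values therefore measure the spread between samples, which may be partly technical.

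The arrays were alike in overall level, with pairwise correlations between 0.983 and 0.996 over 9107 probe sets of mean 4 or more. Values are log2 expression as deposited, from 2.15 at the bottom to 15.52 at the top of the range. Markers of the head were present, with all 11 neuron markers and all 8 photoreceptor markers that had a probe set at a mean of 4 or more. So were 13 of 14 fat body markers, whereas none of 4 oenocyte markers reached this mean. In short days the oenocyte markers Cyp4g1 and FASN3 were at 4.16 ± 3.52 and 3.97 ± 1.33, and the remaining fat body marker, Fbp1, at 3.23 ± 2.02 (SD, n = 4 each). In long days they were at 3.12 ± 1.31, 3.31 ± 0.001 and 2.22 ± 0. With such spreads some single samples lay above these means, and which ones is not given here. Short day replicate 3 stood apart in transcripts of flight muscle, a thoracic tissue, with fln at 11.71 against at most 2.69 on the other 7 arrays.

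Of the 10 genes, 3 were lower in short days: the droplet coat genes Lsd-1 and Jabba and the hormone receptor gene AkhR. None was higher, 5 did not pass the test, and 2, Akh and Dgat2, stayed below 3 on all arrays and could not be compared. A gene was called here at an unadjusted p under 0.01 in limma, the threshold the study used. By that rule 3.48% of all genes were called, with 1.69% called lower and 1.79% called higher in short days. Among the 7348 genes of mean 4 or more, where 8 of the 10 genes lie, 5.65% were called and 2.74% were called lower. Since the 10 genes were chosen with earlier results known, these shares are background and not a test. After Benjamini-Hochberg adjustment over all probe sets in limma none of the 10 passed 0.05, and the lowest adjusted p was 0.172. The median log2 difference of the 8 measured genes was -0.21, against 0.02 for all genes of mean 4 or more.

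Lsd-1 encodes perilipin 1, a coat protein of the droplet surface that both shields the stored fat and serves in hormone-stimulated lipolysis. In long days its log2 values were 11.78, 12.16, 11.92 and 11.82 in replicates 1 to 4, and in short days 10.99, 10.40, 11.28 and 11.03. All short day samples lay below all long day samples, by at least 0.50, a separation downwards that 3.47% of all genes showed. The mean fell from 11.92 ± 0.17 to 10.93 ± 0.38 (SD, n = 4 each), a short day to long day ratio of 0.503 with a 95% interval of 0.360 to 0.703. The limma p was 0.00217 and the adjusted p = 0.229. Only 20 of the 7348 genes of mean 4 or more, Lsd-1 included, had a difference at least as far below 0. When probe sets of lower mean were left out of the fit, the adjusted p of Lsd-1 in limma became 0.0386 and that of Jabba 0.0526, and over all alternatives that of Lsd-1 ran from 0.0249 to 0.792, the latter with the trend and robust variance model.

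Jabba, which anchors histones and other proteins on lipid droplets, was measured by a pair of probe sets, and both were lower in short days. On the brighter one the log2 values were 10.91, 11.27, 10.84 and 10.88 in long days and 10.29, 9.78, 10.38 and 10.38 in short days. The groups did not overlap, and short day replicate 2 lay well below the other short day samples. The mean fell from 10.98 ± 0.20 to 10.21 ± 0.29 (SD, n = 4 each), a ratio of 0.587 with a 95% interval of 0.441 to 0.782 (limma p of 0.00359, adjusted p = 0.281). On the dimmer probe set the values were 9.92, 10.31, 10.14 and 10.28 in long days and 9.27, 8.64, 9.31 and 9.56 in short days. Here too the groups did not overlap, with a ratio of 0.512 (limma p of 0.00309, adjusted p = 0.264) and with short day replicate 2 again the lowest. The call of the brighter probe set was lost when long day replicate 2 and short day replicate 3 were both left out (limma p of 0.0135, adjusted p = 0.445).

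Lsd-2 encodes perilipin 2, the other fly perilipin, which protects droplets from lipases and is found in more tissues. Its log2 values were 12.27, 12.22, 12.42 and 12.56 in long days and 12.13, 12.19, 11.98 and 12.33 in short days. The groups overlapped, and the ratio of 0.866 had a 95% interval of 0.728 to 1.03 (limma p of 0.0895, adjusted p = 0.674), so that neither a fall to 0.728 of the long day level nor a slight rise lies outside it. Whether the perilipins differed in their response was tested on the difference of both log2 values within each array. In long days that difference was -0.45 ± 0.28 and in short days -1.23 ± 0.45 (SD, n = 4 each), a change of -0.78. An exact two-sided permutation test of the 8 arrays gave p = 0.0571 (Benjamini-Hochberg p = 0.0856 over 3 pairs of genes tested), where 0.0286 is the smallest p possible. A stronger response of Lsd-1 than of Lsd-2 was thus not established. With 1 array left out the exact permutation p ran from 0.0286, without short day replicate 3 (a change of -0.96), to 0.0857.

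**Figure D1:**
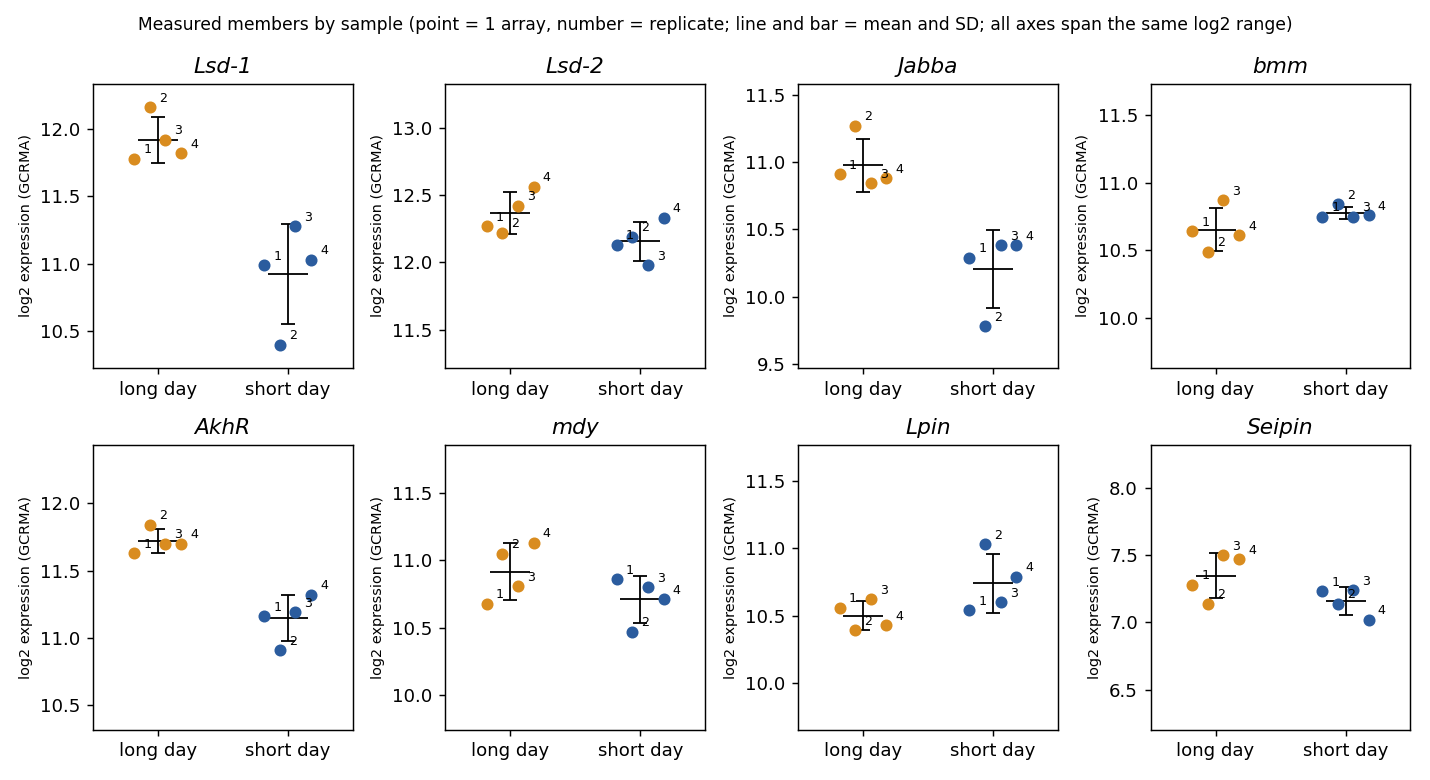
Log2 expression of the 8 measured genes on each array, with long days in orange and short days in blue. Points are samples numbered by replicate, lines and bars are the mean and SD (n = 4), and every axis spans the same log2 range. Short day points lie wholly below long day points for Lsd-1, Jabba and AkhR, and the groups overlap for the other 5 genes.

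On the hormone side the receptor was measured and the hormone was not. AkhR encodes the adipokinetic hormone receptor, a G protein-coupled receptor whose activation leads to the release of stored fat and glycogen. Its brighter probe set gave log2 values of 11.63, 11.84, 11.70 and 11.70 in long days and 11.16, 10.91, 11.19 and 11.32 in short days. The groups were separated by 0.31, and the long day samples lay closer together than the short day samples. The mean fell from 11.72 ± 0.09 to 11.14 ± 0.17 (SD, n = 4 each), a ratio of 0.672 with a 95% interval of 0.574 to 0.787. With a limma p of 0.000742 and an adjusted p = 0.172, AkhR had the smallest p of the 10 genes and ranked 64 among 11982 genes. With only probe sets of mean 4 or more in the fit, the adjusted p in limma was 0.0353, and over all alternatives it ran from 0.0244 to 0.771.

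The dimmer AkhR probe set ran the same way without passing the threshold. Its values were 7.76, 8.25, 7.70 and 7.43 in long days and 7.02, 6.96, 7.36 and 7.33 in short days, and the groups were 0.08 apart. The ratio of 0.651 (95% interval 0.470 to 0.902, limma p of 0.0176, adjusted p = 0.416) was close to that of the brighter probe set, with a long day SD of 0.34 against 0.09. Akh, which encodes the hormone, was at 2.16 on 7 arrays and at 2.19 in short day replicate 3. These values sit at the bottom of the range, where the arrays show no difference. For the receptor and its hormone the within-array difference changed by -0.58 (exact two-sided permutation p = 0.0286, Benjamini-Hochberg p = 0.0856 over the 3 pairs), which, with Akh at the bottom of the range, repeats the change of AkhR.

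bmm (brummer) encodes the fly counterpart of adipose triglyceride lipase, which starts the breakdown of droplet triacylglycerol. Its log2 values were 10.64, 10.49, 10.87 and 10.61 in long days and 10.75, 10.84, 10.75 and 10.76 in short days. The short day samples lay within 0.09 of each other and inside the range of the long day samples. The ratio was 1.09 with a 95% interval of 0.951 to 1.25 (limma p of 0.177, adjusted p = 0.83), which leaves out a fall of the size seen in Lsd-1, Jabba or AkhR. Without long day replicate 3, the highest long day sample, the log2 difference of 0.20 passed the threshold (limma p of 0.006, adjusted p = 0.495).

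None of the measured genes of fat synthesis and droplet assembly passed the test. Lpin encodes lipin, the phosphatidate phosphatase that makes the diacylglycerol from which triacylglycerol is formed. Its log2 values were 10.56, 10.39, 10.62 and 10.43 in long days and 10.54, 11.03, 10.60 and 10.79 in short days. The groups overlapped and the ratio was 1.18 (95% interval 0.967 to 1.44, limma p of 0.0889, adjusted p = 0.674), with short day replicate 2 the highest of all samples.

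mdy (midway) encodes the diacylglycerol acyltransferase of the last step. It gave 10.68, 11.05, 10.81 and 11.13 in long days and 10.86, 10.47, 10.80 and 10.71 in short days, with overlapping groups. The ratio of 0.866 had a 95% interval of 0.694 to 1.08 (limma p of 0.166, adjusted p = 0.811). Its probe set is of a kind whose probes can match further transcripts, so that other RNAs may contribute to these values. Dgat2, from the other family of acyltransferases for the same step, was between 2.16 and 2.25 on all arrays and is not measurable here. The within-array difference of mdy and Dgat2, which again follows mdy alone, changed by -0.23 (exact two-sided permutation p = 0.143, Benjamini-Hochberg p = 0.143 over the 3 pairs).

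Seipin, a membrane protein of the endoplasmic reticulum at the sites where droplets form, gave log2 values of 7.28, 7.14, 7.50 and 7.47 in long days and of 7.23, 7.14, 7.24 and 7.02 in short days. The groups overlapped, and the ratio was 0.878 (95% interval 0.748 to 1.03, limma p of 0.097, adjusted p = 0.692).

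The measured genes did not vary alike within a photoperiod. Short day replicate 2 held the lowest short day values of Lsd-1, Jabba, AkhR and mdy and the highest of bmm and Lpin. In long day replicate 2 the order was turned, with the highest long day values of Lsd-1, Jabba and AkhR and the lowest of bmm, Lpin, Lsd-2 and Seipin. This held for the replicates numbered 2 and not throughout, since in long day replicate 1 Lsd-1 and AkhR were the lowest but Jabba was not. On the same arrays the mean of the fat body markers was also at its extremes, the highest in the long day one at 13.57 and the lowest in the short day one at 12.92, and that of the neuron markers was at the opposite ones, at 10.07 and 10.61. The part of these markers in the pattern was not tested. Without short day replicate 2 the log2 differences were -0.81 for Lsd-1, -0.63 for Jabba and -0.49 for AkhR, and all 3 calls were kept (limma p of 0.000837, 0.00256 and 0.000448).

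**Figure D2:**
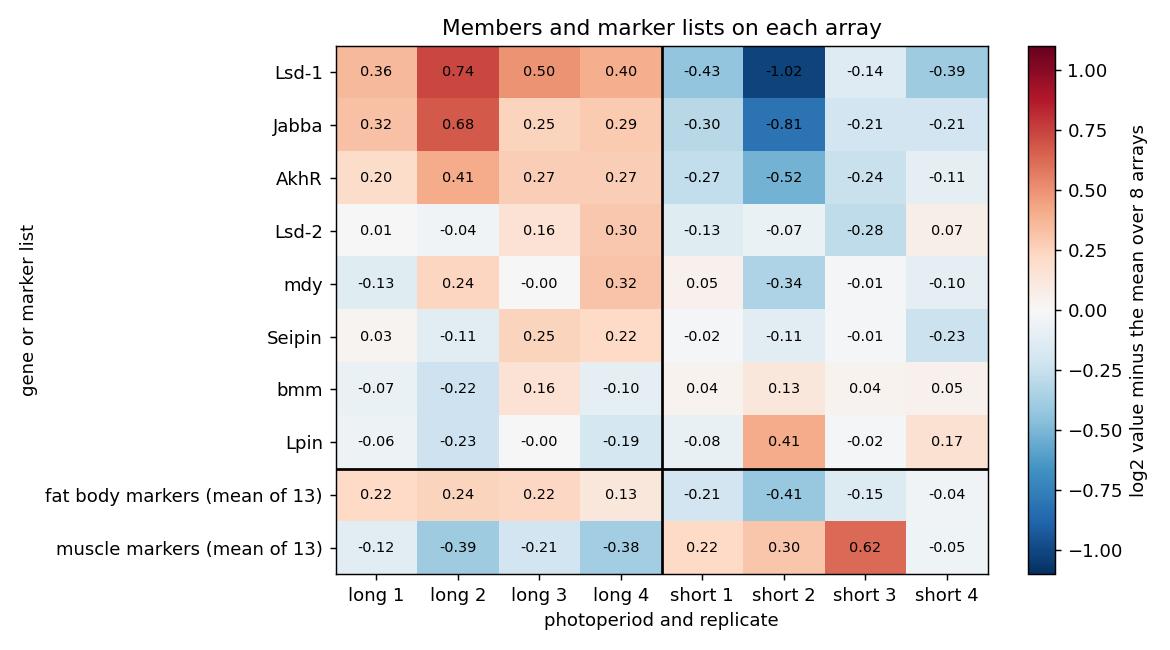
Log2 value minus the mean over the 8 arrays, for each measured gene and for the mean of 13 fat body and 13 muscle markers, with arrays in columns and photoperiods divided by a line. Lsd-1, Jabba and AkhR are above 0 in every long day sample and below 0 in every short day sample, most strongly in the replicates numbered 2, and the fat body markers show the same division.

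Fat body markers moved in the same direction as these 3 genes. Of 14 markers with a probe set 6 fell and none rose, against 1.69% of all genes called lower. Their median log2 difference was -0.32 over the 13 of mean 4 or more. The mean of these 13 lay between 13.46 and 13.57 on the long day arrays and between 12.92 and 13.29 on the short day arrays, a change of -0.41 (exact two-sided permutation p = 0.0286, the smallest possible). Since the marker lists were also chosen with earlier results of these data known, this p is descriptive and not independent support. The 3 markers with the smallest p were the yolk protein gene Yp2 (ratio 0.626), fit, a peptide of the female fat body (ratio 0.314), and the storage protein gene Lsp2 (ratio 0.665). The markers were not uniform, since the lipoprotein gene apolpp, the fatty acid synthase gene FASN1 and the iron transport gene Tsf1, chosen after their values were seen, had log2 differences of -0.06, 0.04 and -0.03. In whole heads, fewer fat body cells and less RNA per cell cannot be told apart.

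Set against the mean of the fat body markers on the same array, Lsd-1 was still lower in short days, by -0.59 on the log2 scale, Jabba by -0.36 and AkhR by -0.17. In all 3 the groups stayed apart (exact two-sided permutation p = 0.0286 each, out of 8 such tests). As deposited, bmm and Lpin differed by 0.12 and 0.24, with overlapping groups. On this scale they were higher in short days by 0.53 and 0.64, without overlap (exact permutation p = 0.0286 each). The marker mean itself changed by -0.41, so a gene with no change of its own would also be higher on this scale. For Lsd-2, mdy and Seipin the sign turned, to 0.20, 0.20 and 0.22, and the groups overlapped (exact permutation p = 0.229, 0.2 and 0.171). The mean stands for markers that differed widely, from a log2 difference of -1.67 for fit to 0.33 for regucalcin. It includes the yolk protein genes Yp1, Yp2 and Yp3 as well as fit, and no mean without them was taken. Pepck1 and Yp3, at -0.95 and -0.90, were close to the -0.99 of Lsd-1, and smp-30 and regucalcin had higher means in short days, as bmm and Lpin had, so that none of the 8 genes lay outside the range of the markers. The p of Lsd-1 on this scale became 0.0571 in the exact permutation test without any 1 of the long day arrays. The same p was reached for AkhR without any 1 of the short day arrays, for Jabba without long day 2, short day 2 or short day 4, and for bmm without short day 2. Both the genes and the markers were chosen with earlier results of these data known, so the p-values on this scale are descriptive.

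**Figure D3:**
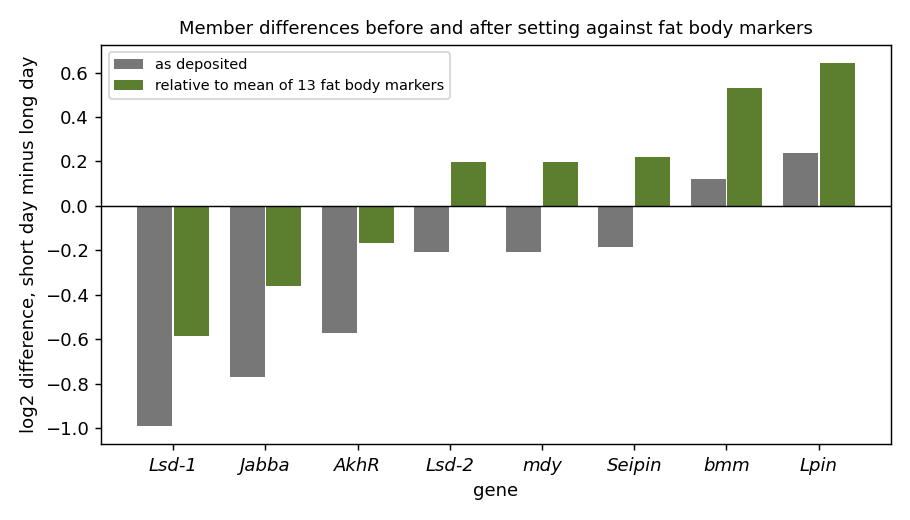
Log2 difference, short day minus long day, of the 8 measured genes as deposited (grey) and relative to the mean of 13 fat body markers on the same array (green). Lsd-1, Jabba and AkhR are below 0 on both scales, Lpin and bmm are above 0 on both, and Lsd-2, mdy and Seipin change sign.

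Muscle markers moved the other way. Of 14 with a probe set 6 rose, among them Obsc, Mlc2 and Prm with ratios of 1.57, 1.40 and 1.44, and none fell. Over all genes 1.79% were called higher. Their mean over 13 genes lay between 11.12 and 11.39 in long days and between 11.46 and 12.13 in short days, with short day replicate 3 the highest. Without that replicate the log2 difference of Lsd-1 was -1.11, that of Jabba -0.83 and that of AkhR -0.59, as large as with it, and all were called. Of the other marker lists 1 of 11 neuron markers rose, Snap25 with a ratio of 1.20, and none of 6 glia, 8 photoreceptor and 6 haemocyte markers was called. The share of all genes called in either direction was 3.48%. All 11 neuron and all 6 haemocyte markers nevertheless had higher means in short days, with median log2 differences of 0.21 and 0.24, and on both lists the array means of the groups overlapped. The part of tissue composition in the differences was not tested further.

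The wider pathway was examined in 4 lists of further genes, 56 in all with a probe set, also chosen with earlier results of these data known. Among 10 lipases and their partners 3 fell and none rose, against 1.69% of all genes called lower. These were puml, the fly homologue of the lipase partner CGI-58, with a ratio of 0.913 (limma p of 0.00221, adjusted p = 0.229), the acid lipase gene Lip4 with 0.715 (limma p of 0.00915, adjusted p = 0.357), and the phospholipase gene iPLA2-VIA with 0.844 (limma p of 0.00653, adjusted p = 0.316). In each the groups did not overlap. The probe sets of puml and iPLA2-VIA are of the kind described for mdy, whose probes can match further transcripts. All 7 genes of this list of mean 4 or more had lower means in short days, with a median log2 difference of -0.41. The other 3 with a probe set, mag, Lip1 and Lip3, were at the bottom of the range. The lipase gene bmm, which is not in this list, had a higher mean in short days, by 0.12. The largest differences in this list did not pass: CG5966 had a log2 difference of -1.51 with a 95% interval of -2.93 to -0.09, and dob, a close relative of bmm, one of -0.74 (limma p of 0.0142, adjusted p = 0.397).

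None of 13 genes of triacylglycerol synthesis was called, and the median log2 difference of the 12 of mean 4 or more was -0.08. Nearest to the threshold were the acyltransferase genes Agpat3 and Agpat4, with log2 differences of -0.22 and -0.55 (limma p of 0.0107 and 0.0118). Probes of both sets, as for mdy, can match further transcripts. Of 12 genes of droplet size and coat recruitment 1 rose, against 1.79% of all genes called higher. It was SERCA, a calcium pump of the endoplasmic reticulum that binds seipin in the fly and is abundant in muscle. Its ratio was 1.21 (limma p of 0.00397, adjusted p = 0.281), beside the rise of the muscle markers given above. The 6 measured subunits of the COPI coat, which controls the proteins on droplets, had log2 differences between -0.14 and 0.07.

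None of 21 genes of hormone processing and receptor signalling was called, and their median log2 difference was 0.10 over the 20 of mean 4 or more. The peptide-processing genes amon and Phm and the G protein genes Galphas and Galphaq had log2 differences of 0.23, 0.12, 0.07 and 0.01. The glucosidase gene tobi, a known target of insulin and of the hormone, had one of -0.59 with a 95% interval of -1.24 to 0.06. Nearest to the threshold were genes with higher means in short days, PhKgamma, Crtc, Pal2 and SNF4Agamma, with log2 differences of 0.26, 0.16, 0.33 and 0.19 and a limma p of 0.0211, 0.0419, 0.0459 and 0.0459 (lowest adjusted p = 0.439). For Galphas, Galphaq and SNF4Agamma the probe sets are again of the kind described for mdy. The receptor was thus called and none of the measured signalling genes downstream of it was, which does not show that these were unaffected.

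**Figure D4:**
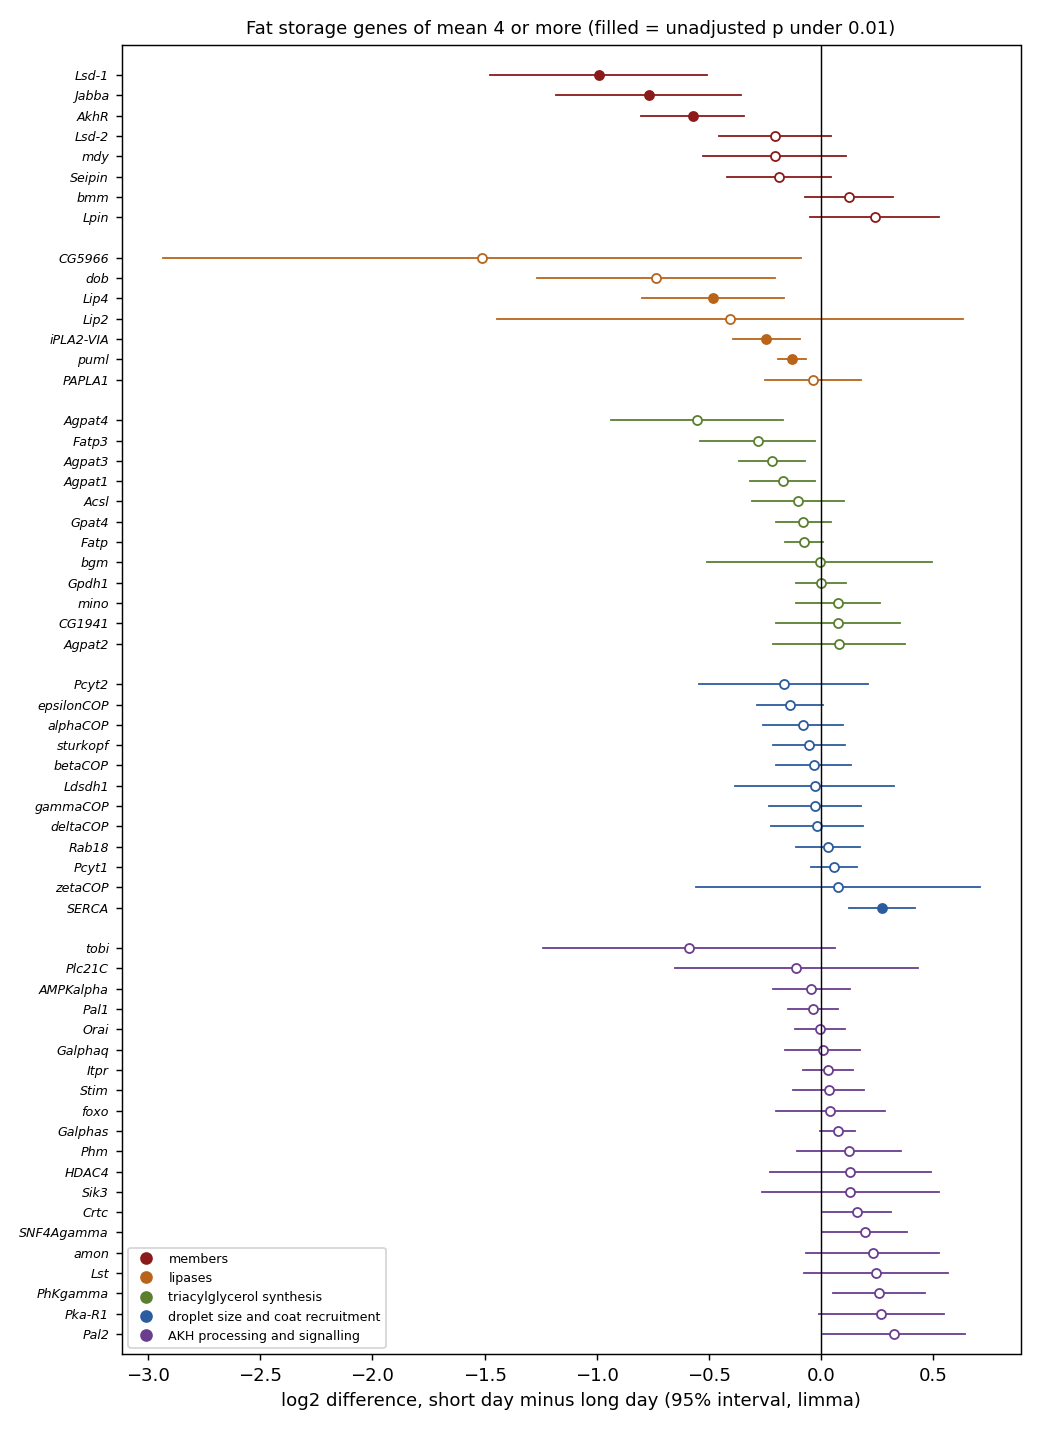
Log2 difference, short day minus long day, with its 95% interval for 59 genes of fat storage of mean 4 or more, grouped by list. Filled points passed an unadjusted p under 0.01 in limma: Lsd-1, Jabba and AkhR, 3 genes of the lipase list to the left of 0, and SERCA to the right.

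The genes whose profile over the 8 arrays was nearest to that of Lsd-1 were looked for among 7347 genes of mean 4 or more, by the root mean square distance between profiles after each gene's mean was subtracted. They were Npc2g, of a family of sterol-binding proteins, at a distance of 0.10 on the log2 scale, Iris at 0.12, CG13912 at 0.13, CG33120 at 0.14 and Jabba at 0.15. Jabba was thus the fifth nearest of all genes, while AkhR was in place 65 at a distance of 0.26, and Lsd-2 in place 1436 at 0.51. The ratios of Npc2g, Iris, CG13912 and CG33120 were 0.538, 0.572, 0.570 and 0.566. This distance depends on the size of a change, so ratios near that of Lsd-1 follow from how these genes were chosen. The places of AkhR and Lsd-2 likewise reflect the smaller size of their changes as well as their pattern.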

How the data were processed

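The deposited values are log2 expression per probe set, which the authors made from 4 long day and 4 short day arrays with GCRMA (background by probe sequence, quantile normalization, probe summary), as named in the submitters' processing notes. No GCRMA version is given in the sources used here. Quantile normalization hides changes in total mRNA, and the number of arrays limits precision. Scan dates were not used here. The table holds 18952 probe sets, of which 183 controls were left out. Genes were named from the platform annotation, in which 4720 probe sets have no gene listed. The annotation names no genome build, so no coordinates are given.

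Short days were compared with long days in limma 3.58.1 (R 4.3.3, lmFit and eBayes, two-sided, no block) over all 18769 probe sets, with Benjamini-Hochberg adjustment over them, after the fit had been tested on simulated data. Ratios are 2 to the power of the log2 difference. The 10 genes and the lists were chosen with earlier results of these data known. Besides the 10 genes, up to 4 called genes per pathway list, up to 3 per marker list and the 5 genes nearest to Lsd-1 were named by rule, and further genes near the threshold, known hormone targets or subunits were named after their values were seen. Of the 159 list entries 129 had a probe set of their own. Alternatives were a replicate block, filters at means of 4 and 6, a second quantile normalization, median centring, a trend and robust variance model, array weights, arrays left out, a floor of 3, no moderation and averaged probe sets.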

Additional observations from a re-analysis of the deposited data

Results flagged for a closer look

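In 4 cases, out of 24 groups looked at, 1 sample lay far from the other 3 relative to the range of its group. The long day values of Akh had no spread and could not be flagged. Chance flags about 1 in 20 for normally distributed values, a rate that does not hold at the bottom of the range. Jabba was at 9.78 in short day replicate 2, against 10.29 in the nearest short day sample, and bmm was at 10.84 in the same sample, against 10.76. Akh was at 2.19 in short day replicate 3, against 2.16, and Dgat2 was at 2.20 in long day replicate 4, against 2.17, both at the bottom of the range.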

How the results depend on the processing

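The calls of Lsd-1 and AkhR were kept in 18 of 19 alternatives each and that of Jabba in 17, and no measured gene changed direction in any of them. The ratios ranged from 0.463 to 0.568 for Lsd-1, 0.548 to 0.648 for Jabba and 0.646 to 0.710 for AkhR. With the replicate number as a block 0 of the 10 genes, 238 of all genes and 300 probe sets were called, where 3, 417 and 518 were called without it, and the limma p were 0.0218 for Lsd-1, 0.0384 for Jabba and 0.0127 for AkhR. The labels do not say whether samples of equal number belong together. Their deviations from the group means correlated with r of 0.00655, -0.23, -0.139 and 0.165, and 1 of 4 numbers was its own best match. So few correlations cannot settle whether the samples were paired. The trend and robust variance model called 180 probe sets and 144 genes. With 1 array left out the counts ranged from 345 to 568 probe sets, from 274 to 470 genes and from 3 to 4 of the 10 genes. The lowest gene count, 274, arose without long day replicate 3 or short day replicate 1. With 1 array left out the change of Lsd-1 relative to Lsd-2 ranged from -0.96 to -0.60 (exact permutation p from 0.0286 to 0.0857). That of AkhR relative to Akh ranged from -0.64 to -0.50 and that of mdy relative to Dgat2 from -0.30 to -0.16. The exact permutation p of mdy relative to Dgat2 ran from 0.0286, without long day replicate 1, to 0.314. Relative to the fat body markers the exact permutation p rose to 0.0571 for Lsd-1 without any 1 of the long day arrays, for AkhR without any 1 of the short day arrays, for Jabba without long day replicate 2 or short day replicate 2 or 4, and for bmm without short day replicate 2. With only probe sets of mean 6 or more in limma, the adjusted p were 0.0249 for Lsd-1, 0.0356 for Jabba and 0.0244 for AkhR. Across the 19 alternatives they ran up to 0.792, 0.831 and 0.771. The number of arrays and the bottom of the range limit what can be said of Akh and Dgat2.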
